A study of Mus musculus with 4 samples.

Results

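The BCL2 family decides whether the outer membrane of mitochondria is opened during apoptosis. Transcripts of 10 members were read from the expression table of 4 cultured mouse mammary tumor cell lines, where they were picked by gene symbol out of 38713 genes: the pro-survival genes Bcl2, Bcl2l1 and Mcl1, the BH3-only genes Bcl2l11, Bmf, Bbc3, Pmaip1 and Bid, and the effectors Bax and Bak1. All lines were C57BL/6, and each came from a separate tumor and gave 1 RNA-seq library. In both JNK_WT lines (p53-/-, replicates 1 and 2) a Cre recombinase driven by the Wap promoter had deleted floxed Trp53, and in both JNK_KO lines (p53-/- JNK-/-, replicates 1 and 3) it had also deleted floxed Mapk8 and Mapk9, which encode JNK1 and JNK2. The Trp53 deletion was therefore shared by controls and mutants. The Wap promoter is active in mammary epithelium during late pregnancy and lactation, which limits the deletion to that compartment. The dispersed tumor cells were first grown on collagen I and later on ordinary dishes, and RNA was taken from attached cultures that had received no treatment. The ages of the mice are not given in the sources used here.

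Pro-survival BCL2 proteins bind and restrain the effectors BAX and BAK, which form pores in the mitochondrial outer membrane and release cytochrome c. BH3-only proteins carry death signals: they occupy the groove of the pro-survival proteins, and some of them also activate BAX and BAK directly. In mammary epithelium BIM (Bcl2l11) and BMF are best known for anoikis, the death of cells that lose contact with the matrix and the death that clears the lumen of a forming duct. Both are tethered to motor complexes through dynein light chains and can be phosphorylated by JNK, a form of control that a transcript level does not show. PUMA (Bbc3), NOXA (Pmaip1) and BAX are textbook targets of p53, the protein whose gene was deleted in every line.

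The comparison asked whether the transcripts of these regulators differed between tumor lines with and without JNK. None of the 10 genes passed the test, and neither did any other of the 12998 genes tested. Several members differed as much between lines of 1 genotype as between the genotypes. Bid, a BH3-only protein cut by caspase 8, was lower in both JNK_KO lines, at 29.8 ± 4.92 FPKM against 66.4 ± 31.5 (SD, n = 2 lines each). Pmaip1, whose product NOXA neutralises MCL1, was higher in both, at 16.6 ± 4.49 FPKM against 5.01 ± 6.04. Groups without overlap were found in 35.0% of all tested genes, and Bid lies on chromosome 6, whose genes were lower as a group in JNK_KO. Bcl2l1, which encodes BCL-XL, was the highest member in all 4 libraries, with equal group means of 97.3 FPKM.

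Levels are FPKM, fragments scaled by transcript length and by the mapped total of the library, as the authors deposited them, and can be set side by side between genes. Differences are JNK_KO minus JNK_WT on the log2(FPKM + 1) scale, which understates the change of genes with low values. They come from limma fitted to the 12998 genes that reached 1 FPKM in 2 or more libraries, with Benjamini-Hochberg adjustment over all of these. All 10 members passed that filter. With 1 library per line the p-values measure the spread between lines, and with 2 lines against 2 an exact permutation test of 1 gene cannot go below 0.333.

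The targeted kinases followed the labels. Mapk8 was at 23.9 and 19.1 FPKM in the JNK_WT lines and at 4.30 and 4.27 in the JNK_KO lines (log2 difference -2.08, SE 0.287, limma adjusted p = 0.191). Mapk9 was at 29.7 and 24.3 FPKM in the JNK_WT lines and at 12.6 and 8.66 in the JNK_KO lines (-1.28, SE 0.311, limma adjusted p = 0.429). Trp53, floxed in every animal, was still listed at 1.55, 4.15, 5.72 and 4.28 FPKM in JNK_WT 1, JNK_WT 2, JNK_KO 1 and JNK_KO 3, and since a level over the whole gene does not separate deleted from kept exons, it is no check of that deletion. All 5 luminal markers were at 1 FPKM or more in all lines, and their sum was lower in both JNK_KO lines, at 895 and 1744 FPKM in JNK_KO 1 and JNK_KO 3 against 3059 and 2072 in JNK_WT 1 and JNK_WT 2. Of these, Epcam (-1.19) and Krt8 (-1.003) were lower without overlap, and limma called neither. Endothelial and adipocyte markers (0 of 4 at 1 FPKM or more in every library, for each type) were close to absent. Of 7 leukocyte markers, 5 were under 1 FPKM in each line, including Ptprc, which marks all leukocytes. The macrophage marker Cd68 was at 19.95, 3.15, 2.65 and 8.43 FPKM in JNK_WT 1, JNK_WT 2, JNK_KO 1 and JNK_KO 3, with JNK_WT 1 highest, and Csf1r reached 1.82 FPKM in JNK_WT 1 and 1.23 in JNK_KO 3.

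Mesenchymal markers summed to 343, 48.6, 606 and 331 FPKM in JNK_WT 1, JNK_WT 2, JNK_KO 1 and JNK_KO 3, most of it Vim in JNK_WT 1, JNK_WT 2 and JNK_KO 1, and 2 of the 5 separated the genotypes. Dcn, which encodes the matrix proteoglycan decorin, was at 0.430 and 0.389 FPKM in the JNK_WT lines and at 79.7 and 162 FPKM in the JNK_KO lines (6.35, SE 0.427, limma adjusted p = 0.055). Pdgfra, a receptor of mesenchymal cells, was at 0.325 and 0.183 FPKM in the JNK_WT lines and at 24.7 and 7.82 FPKM in the JNK_KO lines (3.59, SE 0.595, limma adjusted p = 0.252). Vim (1.16) and Col1a2 (-0.68) had overlapping groups, and Col1a1 was under 1 FPKM in every line. The part of the luminal, Dcn and Pdgfra differences in the member values was not tested. Basal markers summed to 14.9, 530, 29.7 and 349 FPKM in JNK_WT 1, JNK_WT 2, JNK_KO 1 and JNK_KO 3. This split across genotypes was mostly Krt14, a basal keratin. It was at 7.34 and 26.7 FPKM in the replicate 1 lines of JNK_WT and JNK_KO, at 443 FPKM in JNK_WT 2 and at 313 FPKM in JNK_KO 3. Trp63 split alike, at 0.0706, 21.9, 1.16 and 6.58 FPKM in the order of the sums. Krt5 was at 61.9 FPKM in JNK_WT 2 and under 1 FPKM in the other lines. Acta2 was at 7.36, 3.19, 1.70 and 29.0 FPKM, and Myh11 was under 1 FPKM throughout. In bulk RNA a smaller share of cells of 1 type and less RNA per cell cannot be told apart, here and in all values below.

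Within every library the members fell into the same 2 tiers. The upper tier was made of Bcl2l1, Bak1, Mcl1, Bid and Bax, with means over the 4 libraries of 97.3, 62.1, 61.8, 48.1 and 42.9 FPKM. The lower tier held Bcl2l11, Pmaip1, Bbc3, Bcl2 and Bmf, with means of 13.2, 10.8, 8.06, 7.99 and 5.98 FPKM. Ordered by the mean of log2(FPKM + 1), the ranges over libraries separated Bcl2l1 from Bak1 and Bax from Bcl2l11. All other neighbours in that order overlapped in range.

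**Figure D1:**
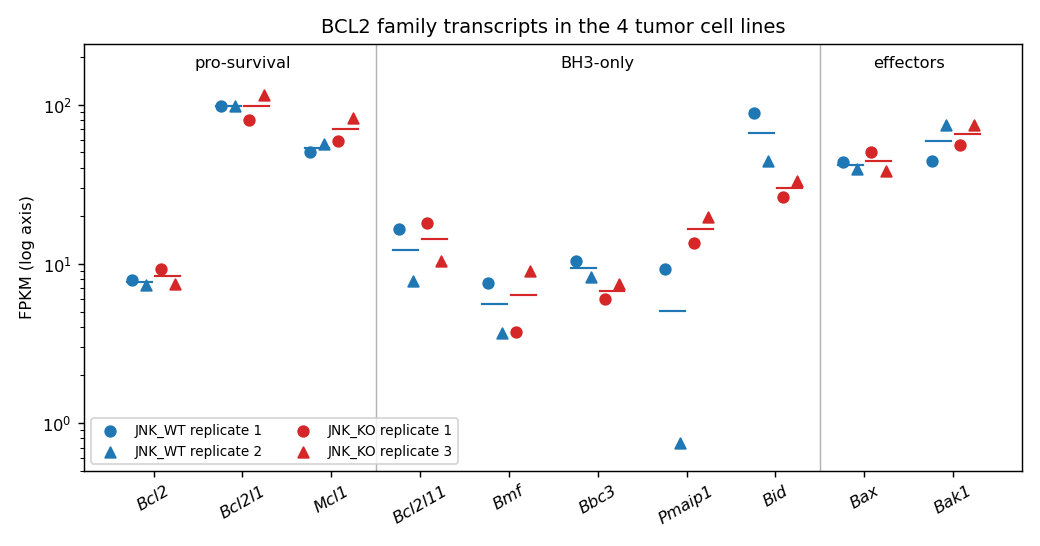
FPKM of the 10 members in each library, on a log axis, with 1 point per library, a short line at each group mean and the genes grouped as pro-survival, BH3-only and effector. Pmaip1 has the widest spread, from 0.744 to 19.7 FPKM, and Bcl2l1 sits between 79.5 and 115 FPKM.

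Among the pro-survival genes, Bcl2l1 (chr2:152780668-152831728, minus strand, GRCm38) encodes BCL-XL, the main BCL2 protein of many epithelia. It was at 97.4 FPKM in JNK_WT 1, 97.2 in JNK_WT 2, 79.5 in JNK_KO 1 and 115 in JNK_KO 3. The JNK_KO lines thus lay on either side of the JNK_WT lines, and the difference was -0.02 (SE 0.272, 95% limma interval -0.75 to 0.70). Bcl2 (chr1:106538178-106714274, minus strand), the founding member, was low and even, at 7.94, 7.34, 9.29 and 7.41 FPKM in the same order of lines. Its groups overlapped, with a difference of 0.11 (SE 0.295, interval -0.68 to 0.89), and 558 of its 9157 exonic bases are shared with the antisense gene D630008O14Rik, so reads of the pair may not be fully separated.

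Mcl1 (chr3:95658788-95663176, plus strand) encodes a short-lived pro-survival protein that is the partner of NOXA. Its level was 50.1 and 56.3 FPKM in the JNK_WT lines and 58.8 and 82.1 FPKM in JNK_KO 1 and JNK_KO 3. Both JNK_KO lines were above both JNK_WT lines, although JNK_KO 1 exceeded JNK_WT 2 by a factor of only 1.04. The means were 53.2 ± 4.43 and 70.4 ± 16.5 FPKM (SD, n = 2), a 1.32-fold difference that limma did not call (0.38, SE 0.270, interval -0.34 to 1.10, adjusted p = 0.920). The difference was 0.14 without JNK_KO 3 and 0.62 without JNK_KO 1. Measured against Bcl2l1 in the same library, the Mcl1 level was 0.514 and 0.580 in the JNK_WT lines and 0.739 and 0.713 in the JNK_KO lines. That pair is 1 of many possible ones, and its ratio was not tested or set beside a background share.

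Of the BH3-only genes, Bid and Pmaip1 had the widest ranges over the lines, at 1.72 and 3.57 on the log2(FPKM + 1) scale. Pmaip1 (chr18:66458533-66465565, plus strand) was at 9.28 FPKM in JNK_WT 1, 0.744 in JNK_WT 2, 13.4 in JNK_KO 1 and 19.7 in JNK_KO 3. Both JNK_KO lines were higher, yet the JNK_WT lines themselves differed 12.5-fold, and the value in JNK_WT 2 corresponds to about 109 reads at the depth implied by the values. The difference of 2.03 (SE 0.916, interval -0.41 to 4.47) had a limma adjusted p of 0.746. Without JNK_WT 2 it was 0.75 and without JNK_WT 1 it was 3.31, so its size depended on which control line was used.

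Bid (chr6:120891930-120916853, minus strand) links death receptors to mitochondria. Its level was 88.7 FPKM in JNK_WT 1, 44.2 in JNK_WT 2, 26.3 in JNK_KO 1 and 33.3 in JNK_KO 3. Both JNK_KO lines were lower, and the mean of the JNK_WT lines was 2.23 times theirs. The difference of -1.06 (SE 0.410, interval -2.15 to 0.03) had an unadjusted p of 0.055 and a limma adjusted p of 0.665, and it was -0.56 without JNK_WT 1 and -1.55 without JNK_WT 2. Of the 3550 exonic bases of Bid, 628 are shared with Bcl2l13 on the opposite strand.

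Bid lies on a chromosome whose genes were lower as a group in the JNK_KO lines. The 628 tested genes of chromosome 6 had a median difference of -0.59, against 0.01 over all tested genes, and their median deviation from the mean over libraries was 0.35, 0.27, -0.33 and -0.22 in JNK_WT 1, JNK_WT 2, JNK_KO 1 and JNK_KO 3. On that chromosome 96 genes had a lower difference than Bid and 531 a higher one. The part of the chromosome in the Bid value was not tested. No other member lay on a chromosome with a median beyond 0.12: for Pmaip1 the median of chromosome 18 was 0.07, with 314 of its 326 tested genes below Pmaip1 and 11 above.

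**Figure D2:**
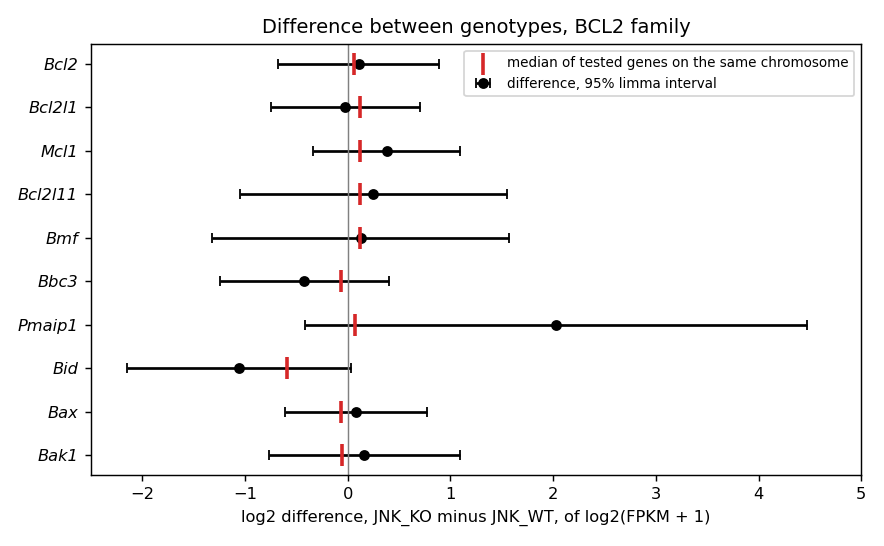
Difference between genotypes for each member, JNK_KO minus JNK_WT on the log2(FPKM + 1) scale, with the 95% limma interval as the bar and the median of the tested genes on the same chromosome as a red mark. All 10 intervals include 0, and Bid is the member whose chromosome median, -0.59, is itself far below 0.

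Bcl2l11 and Bmf encode the BH3-only proteins best known for anoikis in mammary epithelium, and neither separated the genotypes. Bcl2l11 (chr2:128126038-128162547, plus strand) had levels of 16.5 and 7.81 FPKM in JNK_WT 1 and JNK_WT 2, and of 18.1 and 10.4 FPKM in JNK_KO 1 and JNK_KO 3. The higher values lay in the replicate 1 line of each genotype, the lines of a genotype differed 2.11-fold and 1.74-fold, and the difference between genotypes was 0.25 (SE 0.487, interval -1.05 to 1.55). Bmf (chr2:118528757-118549687, minus strand) had another order, with 7.55 FPKM in JNK_WT 1, 3.65 in JNK_WT 2, 3.75 in JNK_KO 1 and 8.97 in JNK_KO 3. Its lines differed 2.07-fold within JNK_WT and 2.39-fold within JNK_KO, and the groups overlapped (0.13, SE 0.544, interval -1.32 to 1.58). Differences of 1 in either direction lie inside both intervals, and the limma adjusted p was 0.999 for each gene.

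Bbc3 (chr7:16308393-16318205, plus strand) encodes PUMA, which binds every pro-survival member. It was at 10.5 and 8.29 FPKM in the JNK_WT lines and at 6.01 and 7.47 FPKM in JNK_KO 1 and JNK_KO 3. Both JNK_KO lines were lower, by a gap of 1.11-fold between the nearest lines, and the group means differed 1.39-fold. Limma gave -0.42 (SE 0.308, interval -1.24 to 0.40, adjusted p = 0.930), and -0.27 without JNK_WT 1.

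The effectors did not separate the genotypes. Bax (chr7:45461697-45466898, minus strand) was at 43.5, 39.3, 50.7 and 38.0 FPKM in JNK_WT 1, JNK_WT 2, JNK_KO 1 and JNK_KO 3, and its difference was 0.08 (SE 0.260, interval -0.61 to 0.78). Bak1 (chr17:27019810-27029009, minus strand) was at 44.4, 74.2, 55.8 and 74.2 FPKM in the same order, with a difference of 0.16 (SE 0.349, interval -0.77 to 1.09). Its higher values lay in JNK_WT 2 and JNK_KO 3, and the Bak1 level over the Bax level was 1.02, 1.89, 1.10 and 1.95. Those are the lines with Krt14 at 443 and 313 FPKM, and the part of this Krt14 split in the Bak1 and Bcl2l11 values was not tested. Exons of Bax share 192 bases with Gm45808 and those of Bak1 share 177 bases with Ggnbp1 on the opposite strand.

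Across the family, 0 of 10 members were called at an adjusted p under 0.05 with a difference over 0.75, beside 0.0% of all tested genes, and limma gave 0 members an unadjusted p under 0.05, beside 992 genes (7.63%). Only Pmaip1 and Bid, 2 members of 10, exceeded a difference of 0.75, beside 15.7% of the tested genes. In 4 members the groups did not overlap, beside 35.0% of the tested genes: Mcl1 and Pmaip1 were higher in JNK_KO (18.3% of genes) and Bbc3 and Bid were lower (16.7%). These shares are near the background. By role, the groups did not overlap in 1 of 3 pro-survival genes, 3 of 5 BH3-only genes and 0 of 2 effectors. The median difference over the members was 0.12, and it was -0.0070 without JNK_WT 2.

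**Figure D3:**
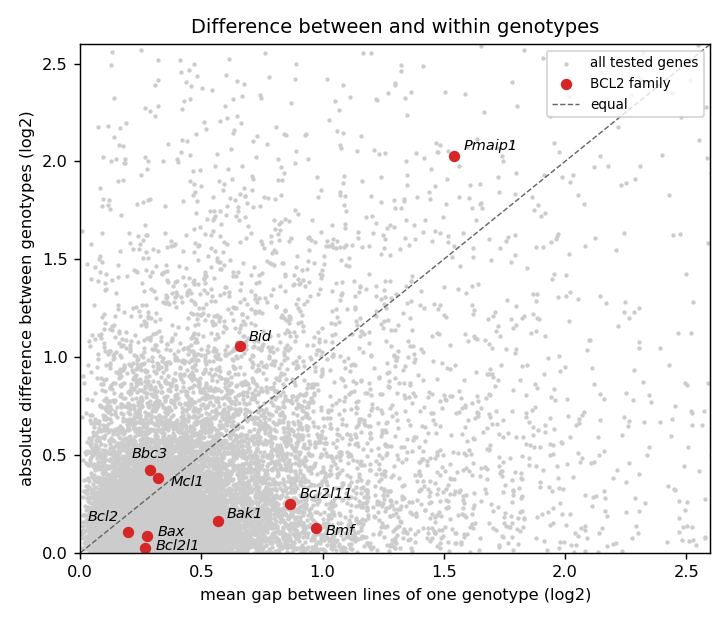
For each tested gene, the mean gap between lines of 1 genotype (horizontal, log2) against the absolute difference between genotypes (vertical, log2), with the members in red and equality as the dashed line. Mcl1, Bbc3, Bid and Pmaip1 lie above the line, which is the same as groups that do not overlap, and 417 tested genes lie outside the plotted range.

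Summed by role, the BH3-only level set 1 control line, JNK_WT 1, apart rather than the genotypes, and Bid held 67.0% of that sum there. These sums run over the 10 members only, with 1 value per gene, so splice forms are pooled. Family genes of the same roles outside the members, such as the BH3-only gene Bad and the pro-survival gene Bcl2l2, are left out. The BH3-only members added up to 132 FPKM in JNK_WT 1 and to 64.7, 67.5 and 79.8 FPKM in JNK_WT 2, JNK_KO 1 and JNK_KO 3. That made 35.2% of the summed FPKM of the 10 members in JNK_WT 1, against 19.1%, 21.0% and 20.1% in the other lines. The pro-survival sum was 155, 161, 147 and 205 FPKM and the effector sum was 87.9, 113, 106 and 112 FPKM in the same order of lines. The ratio of the pro-survival sum to the BH3-only sum was accordingly 1.17 in JNK_WT 1 and 2.49, 2.18 and 2.56 in the other lines. JNK_WT 1 was also the line with the highest Cd68, at 19.95 FPKM, although only 2 of 7 leukocyte markers reached 1 FPKM there and Ptprc was at 0.0134 FPKM. The part of Cd68 in this sum was not tested.

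Bid was the highest BH3-only member in each library. It held 67.0% and 68.3% of the BH3-only sum in the JNK_WT lines and 38.9% and 41.7% in the JNK_KO lines. Without Bid the BH3-only member sum was 43.7, 20.5, 41.2 and 46.6 FPKM in JNK_WT 1, JNK_WT 2, JNK_KO 1 and JNK_KO 3. In that sum JNK_WT 2 was the line that stood apart. Bad, a BH3-only gene outside the members, was at 20.6, 27.9, 24.2 and 27.8 FPKM in the same order of lines. In every library it was above each BH3-only member except Bid. The sums, shares and ratios leave it out and hold for the members only. The level of Mcl1 over that of Pmaip1, the pair formed by MCL1 and its partner NOXA, was 75.7 in JNK_WT 2 and between 4.16 and 5.39 in the other lines.

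**Figure D4:**
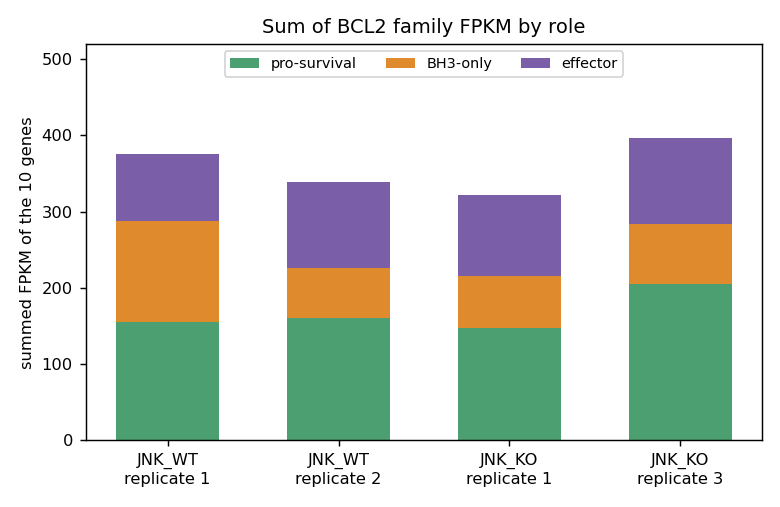
Summed FPKM of the pro-survival, BH3-only and effector members in each of the 4 libraries. The BH3-only sum is 132 FPKM in JNK_WT 1 and between 64.7 and 79.8 FPKM in the other lines.

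The windows of 250 bases before the annotated starts were searched on both strands for motifs of factors known to control the family. They were the FOXO element GTAAACA, the NF-kB element (GGG and TTTCC with 2 bases of any kind between them), the AP-1 element TGAGTCA, the cyclic AMP response element TGACGTCA and the interferon element (GAAA repeated after 2 bases of any kind). The search covered 16 such windows of RefSeq (GRCm38.p6) for 9 members. No window of Pmaip1 was searched. A window is shown for the first annotated start of the anoikis gene Bcl2l11, and for Mcl1 and Bid, the members of the upper tier whose groups did not overlap. Capitals mark a motif, read 5′ to 3′ on the strand of the gene: the FOXO element of Bcl2l11 (chr2:128125788-128126037, plus strand), the NF-kB element, as its reverse complement, of Mcl1 (chr3:95658471-95658720, plus strand), and none in Bid (chr6:120916825-120917074, minus strand).
Bcl2l11: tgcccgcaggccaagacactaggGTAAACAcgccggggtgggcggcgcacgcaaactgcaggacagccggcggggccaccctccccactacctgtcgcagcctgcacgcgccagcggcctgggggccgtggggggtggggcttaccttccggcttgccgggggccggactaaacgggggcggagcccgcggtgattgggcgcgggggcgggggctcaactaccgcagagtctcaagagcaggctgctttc
Mcl1: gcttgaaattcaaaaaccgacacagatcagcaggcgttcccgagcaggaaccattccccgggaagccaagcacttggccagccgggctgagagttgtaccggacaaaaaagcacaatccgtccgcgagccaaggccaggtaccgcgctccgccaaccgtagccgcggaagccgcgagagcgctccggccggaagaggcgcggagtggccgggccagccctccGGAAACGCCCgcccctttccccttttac
Bid: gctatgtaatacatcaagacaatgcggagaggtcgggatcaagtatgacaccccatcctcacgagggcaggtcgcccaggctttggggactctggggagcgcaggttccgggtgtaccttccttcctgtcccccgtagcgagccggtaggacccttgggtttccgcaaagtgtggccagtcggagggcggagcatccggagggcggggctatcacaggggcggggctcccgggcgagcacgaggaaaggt

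The FOXO element of Bcl2l11 lay 227 to 221 bases before that first start, and the window of the second start (chr2:128127325-128127574, not printed) held none of the 5 motifs. GTAAACA was held by 2 of the 16 windows, the other being one of Bbc3, beside 3.17% of all 32851 windows. The NF-kB element of Mcl1 lay 28 to 19 bases before the start, and that motif was held by 3 windows, of Bbc3, Bcl2l1 and Mcl1, beside 1.41% of all. None of the 16 windows searched held the AP-1 element (4.46% of all windows), the cyclic AMP response element (1.55%) or the interferon element (2.98%). The printed windows were rich in G and C, at 72.0% for Bcl2l11, 64.4% for Mcl1 and 63.6% for Bid, beside a median of 52.4% over all windows. Among the other member windows the share ran from 47.6% (Bcl2l1) to 81.6% (Bbc3). A match of letters is no evidence of binding, and a lack of one says only that these letters are not in the window.

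Beyond the 10 members, 95 genes of 6 lists on the same pathway were read from the same fit, and 88 of them passed the filter. Limma called 0 of these, and 8 had an unadjusted p under 0.05, beside 7.63% of all tested genes. Mapk8 and Mapk9, deleted by design, are among the 8 and among the genes lower without overlap. The groups did not overlap in 13 list genes that were higher and 18 that were lower in JNK_KO, together 35.2% of the 88, which is the background of 35.0%. By list that share ran from 28.6% (sequestration and turnover) to 41.7% (mitochondrial partners). The median difference of the tested list genes was 0.02. Of 15 other BCL2 family genes 10 were tested, with 2 higher and 2 lower without overlap (40.0%, beside 35.0% of all tested genes) and a median of 0.15, which was 0.035 without JNK_WT 1, 0.091 without JNK_KO 3, 0.23 without JNK_WT 2 and 0.35 without JNK_KO 1. Bok, an effector-like member, was at 11.3 and 6.29 FPKM in the JNK_WT lines and at 28.1 and 12.4 FPKM in the JNK_KO lines, a difference of 1.06 that was 0.50 without JNK_KO 1, 1.62 without JNK_KO 3 and 0.68 without JNK_WT 2. Bcl2l14 was at 3.92 and 2.53 FPKM in the JNK_WT lines and at 0.897 and 0.421 FPKM in the JNK_KO lines (-1.34, SE 0.361, limma adjusted p = 0.465). Bcl2l13, a mitochondrial BCL2-like protein, differed by -0.71.

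Downstream of the pores, 4 of 19 tested genes for the apoptosome, the caspases and their inhibitors were higher in JNK_KO without overlap and 3 were lower, together 36.8% beside the 35.0% of all tested genes. Their median of 0.02 turned to -0.0011 without JNK_KO 1 and was 0.094 without JNK_KO 3. The largest differences were in inhibitors and their antagonist. Birc3, which encodes cIAP2, was at 14.7 and 9.01 FPKM in the JNK_WT lines and at 72.6 and 46.1 FPKM in the JNK_KO lines (2.23, SE 0.381, limma adjusted p = 0.256). Its neighbour Birc2, which encodes cIAP1, was at 8.73 and 4.95 FPKM in the JNK_WT lines and at 31.5 and 22.4 FPKM in the JNK_KO lines (1.86, SE 0.382, limma adjusted p = 0.343). Both lie on chromosome 9, whose tested genes had a median of 0.11. Xaf1, which encodes an interferon-induced antagonist of XIAP, was at 12.0 and 3.29 FPKM in the JNK_WT lines and at 50.8 and 40.5 FPKM in the JNK_KO lines (2.63, SE 0.597, limma adjusted p = 0.389).

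The lists for mitochondrial partners and for sequestration and turnover had medians of 0.03 and -0.12. Leaving out 1 library gave the first -0.081 (without JNK_WT 2) to 0.14 (without JNK_WT 1) and the second -0.19 (without JNK_WT 2) to -0.019 (without JNK_KO 1). Of 12 mitochondrial genes 2 were higher and 3 lower without overlap (41.7%, beside 35.0% of all tested genes), with the largest differences in Immt (-0.65), Vdac1 (-0.60) and Chchd3 (-0.52). Vdac1 was at -0.30 without JNK_KO 1 and at -0.90 without JNK_KO 3. Of 14 genes for sequestration and turnover 0 were higher and 4 lower without overlap (28.6%). Of all tested genes 35.0% did not overlap in either direction and 16.7% were lower without overlap. Dynll1, the light chain that holds BIM, was at 270 and 250 FPKM in the JNK_WT lines and at 249 and 215 FPKM in the JNK_KO lines (-0.17, SE 0.227, limma adjusted p = 0.995). Dynll2, the light chain that holds BMF, was at 97.6, 167, 111 and 99.3 FPKM in JNK_WT 1, JNK_WT 2, JNK_KO 1 and JNK_KO 3, with overlapping groups (-0.28). Both light chains were therefore far above Bcl2l11 and Bmf in FPKM. Sfn, the 14-3-3 sigma gene, was at 29.4 and 96.4 FPKM in the JNK_WT lines and at 9.48 and 13.2 FPKM in the JNK_KO lines (-2.16, SE 0.624, limma adjusted p = 0.498), a difference that was -1.32 without JNK_WT 2 and -2.997 without JNK_WT 1. Cul5 differed by 0.22, and by -0.12 without JNK_WT 2.

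Of 16 tested transcriptional regulators of the members, 4 were higher and 1 lower without overlap (31.2%, beside 35.0% of all tested genes), with a median of 0.22 that turned to -0.024 without JNK_WT 1 and was 0.38 without JNK_WT 2. Stat3, which drives cell death in the involuting mammary gland, was at 29.1, 111, 86.6 and 122 FPKM in JNK_WT 1, JNK_WT 2, JNK_KO 1 and JNK_KO 3, so that JNK_WT 1 alone was low (0.84, and -0.11 without that line). Runx1 differed by -0.67 and Nr3c1, the glucocorticoid receptor gene, by 0.56. Of 17 tested kinases and adhesion genes of anoikis, which include the deleted Mapk8 and Mapk9, 1 was higher and 5 lower without overlap (35.3%, beside 35.0% of all tested genes), with a median of -0.20 that was -0.030 without JNK_KO 3. Itgb4, which encodes the integrin beta 4 chain of hemidesmosomes, was at 35.6 and 178 FPKM in the JNK_WT lines and at 19.8 and 31.4 FPKM in the JNK_KO lines (-1.64). It was -2.79 without JNK_WT 1 and -0.50 without JNK_WT 2. JNK_WT 2 had high Krt5 and Krt14, at 61.9 and 443 FPKM, whose part in the value was not tested.

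**Figure D5:**
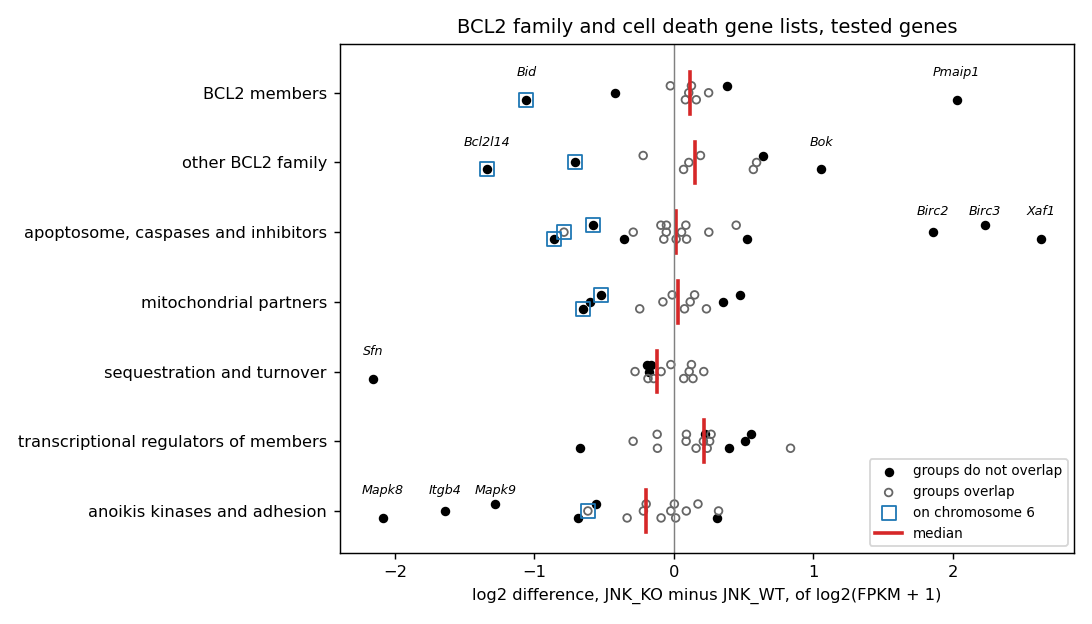
Difference between genotypes (JNK_KO minus JNK_WT, log2(FPKM + 1)) of each tested gene of the BCL2 members and of the 6 lists, with filled points where the groups do not overlap, a blue square for genes on chromosome 6 and a red bar at the median. All 9 genes with a blue square lie below 0.

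Genes of the pathway that lie on chromosome 6 were lower together. Including Bid, 9 tested genes of the members and lists lay there (Bid, Bcl2l13, Bcl2l14, Cycs, Casp2, Htra2, Immt, Chchd3 and Cav1), all 9 had a difference below 0, from -1.34 to -0.52, and in 7 the groups did not overlap, beside 16.7% of all tested genes and 56.2% of those of chromosome 6 that were lower without overlap. Some of these were picked out for their position after the values were seen. Cycs, which encodes cytochrome c, was at 34.3 and 38.0 FPKM in the JNK_WT lines and at 20.8 and 18.2 FPKM in the JNK_KO lines (-0.86, SE 0.242, limma adjusted p = 0.485). The median of the 9 was -0.71, beside -0.59 for all tested genes of the chromosome.

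The profiles most like those of the 3 members with the widest ranges were found by the root mean square distance between log2(FPKM + 1) profiles over the 4 libraries, each centred on its own mean, among 12997 genes. For Pmaip1 the nearest was Prom2, at a distance of 0.121, with 7.32, 0.507, 9.74 and 13.4 FPKM in JNK_WT 1, JNK_WT 2, JNK_KO 1 and JNK_KO 3. Snora78 and Car2 followed at 0.253 and 0.282, and Prom2 was the 1 gene within a distance of 0.2. For Bid the nearest were Fbxo17 on chromosome 7 and Ppp1r9a and Stk38l on chromosome 6, at distances of 0.0700, 0.0773 and 0.0779, and 75 genes lay within 0.2. For Bcl2l11 they were Fgl1, Cc2d2a and Spc25, at 0.0370, 0.0375 and 0.0569, with 227 genes within 0.2. With 4 libraries many genes share a profile, and the distances are a description only.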

How the data were processed

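RNA from 4 mammary tumor cell lines (2 JNK_WT, 2 JNK_KO) was made into libraries with an Illumina TruSeq kit, and groups and replicate numbers came from the sample titles. The authors trimmed reads with Trimmomatic, sampled them to similar numbers with seqtk, aligned them to mm10 (GRCm38) with Bowtie2 and TopHat2 2.0.14 and estimated FPKM with Cufflinks 2.2.1, versions per the submitters' processing notes. The deposited values were FPKM, 1 per gene and library, without pooling. The gene annotation and strand setting are not given in the sources used here. Cufflinks shares reads between overlapping transcripts by estimate.

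Of 38741 rows, 27 with symbols turned into dates and 1 without a value were left out. Whole reads were not recoverable for most genes, so a count model was not used. Steps between low FPKM values implied library depths in a ratio of 1 to 1.40 from the shallowest (JNK_KO 1) to the deepest (JNK_KO 3). The test was limma 3.58.1 in R 4.3.3, with an intensity trend, two-sided, on log2(FPKM + 1), after a filter of FPKM of at least 1 in 2 libraries. Calls needed an adjusted p under 0.05 with an absolute difference over 0.75. The fit was also run on simulated data with differences larger than those of most members. That run does not tell how often differences of their size would be called. Alternatives were other pseudocounts, filters, scalings, eBayes settings and thresholds, and leaving out each library. Summaries and figures were made in Python 3.11.15 with pandas 2.3.3, numpy 2.4.6 and matplotlib 3.10.9.

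Gene positions came from GENCODE M21 (GRCm38) and upstream windows from RefSeq (GRCm38.p6). The members, lists and tests were chosen with earlier results of these data known. The text names the members, the kinases and Trp53 as checks of the labels, the 3 tested genes with the largest absolute difference in each list, Dynll1 and Dynll2, the cell type markers, and the 3 genes with profiles nearest to each of the 3 members with the widest ranges. Genes of chromosome 6 outside this rule were named after their values were seen.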

Additional observations from a re-analysis of the deposited data

How the results depend on the processing

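Members called and list genes called were 0 under every alternative run. Over all genes the count called was 0 and became 10 and 14 when the pseudocount was lowered to 0.1 and to 0.5, 14 when no trend was fitted and 25 at an adjusted p under 0.1. Leaving out 1 library gave 5 to 8 members whose groups did not overlap, since fewer libraries must then be separated, and 1 to 2 members over a difference of 0.75 (1 without JNK_WT 1 and 1 without JNK_WT 2). Mcl1, Bbc3, Pmaip1 and Bid kept their direction in all alternatives. Leaving out 1 library or changing the pseudocount, filter or eBayes setting could not turn these, because their groups did not overlap. Bcl2l1 turned to 0.00040 under quantile normalization. Leaving out 1 library gave -0.039 to 0.25 for Bcl2, -0.29 to 0.24 for Bcl2l1, -0.24 to 0.74 for Bcl2l11, -0.41 to 0.66 for Bmf, -0.12 to 0.29 for Bax, -0.20 to 0.52 for Bak1, -0.11 to 1.79 for Stat3, -0.66 to 0.11 for Dynll2 and -0.12 to 0.55 for Cul5, and the cause of these turns was not tested. The median over the members turned to -0.0070 without JNK_WT 2, and 3 list medians also turned with 1 library left out (apoptosome, caspases and inhibitors, mitochondrial partners, and transcriptional regulators). For the others the ranges were 0.14 to 0.62 for Mcl1, -0.57 to -0.27 for Bbc3, 0.75 to 3.31 for Pmaip1 and -1.55 to -0.56 for Bid. No paired analysis was possible because replicate 1 is the single number found in both genotypes, and the labels tie no line of one genotype to a line of the other. A fit without 1 library leaves a group with 1 line, which is then assumed to vary like the other group.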
